A study of Mus musculus with 12 samples.

Results

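Proteasome genes were examined in CD8 T cells of diabetes-prone mice. The genes were all symbols of the feature list that begin with Psm, a letter from a to g and a number, with pseudogenes left out, which gave 50 of 32285 features. They comprised 8 20S alpha subunits, 4 structural and 3 constitutive catalytic beta subunits, 5 immune subunits (Psmb8, Psmb9, Psmb10, Psme1 and Psme2), 1 thymus-specific beta subunit (Psmb11), 6 ATPases and 11 non-ATPases of the 19S particle, 3 19S assembly chaperones, 3 other activators or inhibitors, 4 20S assembly chaperones and 2 further matches that are not established subunits (Psmc3ip and Psme2b). The rule used symbols only and no measured value.

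The proteasome is the main protease of the cytosol and nucleus, a barrel of alpha and beta rings (the 20S core) in which 3 beta subunits cut proteins, capped by a 19S particle that recognises ubiquitin and unfolds substrates. In cells exposed to interferon, and constitutively in lymphocytes, newly made cores take up Psmb8, Psmb9 and Psmb10 in place of Psmb5, Psmb6 and Psmb7, which gives the immunoproteasome, and the PA28 cap of Psme1 and Psme2 can bind the core. The immunoproteasome is best known for making peptides for MHC class I and also supports protein turnover in dividing T cells.

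Female NOD/ShiLtJ mice, a strain that develops autoimmune diabetes, were killed at 10 to 15 weeks of age and are described by the study as prediabetic. Each of 2 rounds combined the islets of 10 mice and, separately, their spleens. CD45.1+ CD8+ cells without CD4, B220 or CD11b were sorted with a class I (Kd) tetramer holding the mimotope peptide NRP-V7, which marks T cells that recognise the islet protein IGRP. The 3 groups were tetramer-negative islet cells (IGRP- islet), tetramer-positive islet cells (IGRP+ islet) and tetramer-positive spleen cells (IGRP+ spleen), each with 1 droplet library of 5' transcripts per round, so n = 2 pools per group. All mice were untreated, spleen cells alone passed a bead-based CD8 enrichment and are described by the study as sorted for CD44, a marker of antigen-experienced T cells, and the tetramer-negative gate can hold T cells of any other specificity.

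After the filters 24117 of 26818 barcodes remained, 1204 to 8932 per library, with 5880696 to 40469961 UMIs (counted molecules) per library and a median of 3793 to 4216.5 UMIs per cell in the islet libraries against 2590 and 2764.5 in the spleen libraries. CD8 T cell genes (Cd3d, Cd3e, Cd3g, Cd8a, Cd8b1) summed to 4042 to 5616 CPM (UMIs per 1000000 of the library), while Cd4 stayed at 0 to 0.173, B cell genes at 1.53 to 11.4 and NK cell genes at 0 to 1.01. Myeloid genes, a list that holds the widely expressed Cst3, reached 191 to 259. Exocrine pancreas genes summed to 53.6 to 352 CPM in the islet libraries against 5.62 and 6.51 in the spleen libraries, where 6 of 8 were at 0, and islet hormone genes to 2.92 to 13.8 against 0. Between 2 and 64 cell barcodes were shared by any pair of libraries, 0.166% to 1.03% of the smaller one. Cycling cells, defined by UMIs of at least 3 of 15 cell cycle genes, made up 15.9% and 11.7% of IGRP+ islet cells, 5.93% and 4.43% of IGRP- islet cells, and 0.0851% and 0.370% of spleen cells (round 1, then round 2 throughout). Depth, exocrine RNA and the share of cycling cells thus moved with the groups.

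The starts of 4 of the 6 catalytic genes are shown because the comparisons below turn on the immune genes against the constitutive ones they replace. The sequences are RefSeq windows on GRCm38.p6, read 5′ to 3′ on the strand of the gene and ending at the gene's start, cut where an exon of the GENCODE annotation begins. Capitals mark the letters TTCNNNGAA, the core of a STAT binding site, searched on both strands (the pattern equals its own reverse complement). For Psmb8 (chr17:34198087-34198116, + strand) only 30 bases around the match are given, since an alternative GENCODE transcript covers the whole window. The match there begins 97 bases before the RefSeq start, at the end of a window that runs to 34198194. By the GENCODE position used below, where the gene begins at 34197721, the match lies inside the gene. Psmb9, whose window held no match, and Psmb7 are not printed. The other windows are those of Psmb10 (chr8:105938445-105938642, - strand), Psmb5 (chr14:54618023-54618245, - strand) and Psmb6 (chr11:70525107-70525356, + strand).
Psmb8: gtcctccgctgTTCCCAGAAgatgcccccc
Psmb10: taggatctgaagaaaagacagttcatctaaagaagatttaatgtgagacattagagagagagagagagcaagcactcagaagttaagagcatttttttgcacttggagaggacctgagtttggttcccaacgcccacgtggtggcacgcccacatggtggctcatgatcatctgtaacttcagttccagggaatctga
Psmb5: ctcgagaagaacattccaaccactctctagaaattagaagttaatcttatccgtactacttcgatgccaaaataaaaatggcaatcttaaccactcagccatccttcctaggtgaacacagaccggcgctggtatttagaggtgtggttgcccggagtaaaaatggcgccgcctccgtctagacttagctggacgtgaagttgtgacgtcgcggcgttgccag
Psmb6: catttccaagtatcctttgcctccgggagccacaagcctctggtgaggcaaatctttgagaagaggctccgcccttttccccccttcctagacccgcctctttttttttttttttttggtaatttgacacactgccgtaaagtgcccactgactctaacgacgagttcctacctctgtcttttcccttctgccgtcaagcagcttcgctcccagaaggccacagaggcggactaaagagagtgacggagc
Among 45 upstream windows of 250 bases for 42 of the 50 genes, 2 held TTCNNNGAA (Psmb8 and Psmg1), or 4.44%, against 7.02% of all 32851 windows. The interferon-response letters GAAANNGAAA occurred in 3 of the 45 windows (Psmb3, Psmd4 and Psmd9), or 6.67%, against 2.98% of all, on either strand and with no overlap counted against the first pattern. These are letter matches and no record of binding.

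Of the 50 genes, 48 passed the filter on low counts. Psma8, the testis-specific alpha subunit, had 0 UMIs in all 6 libraries, which allows up to 3 UMIs in each, and Psmb11, the beta subunit of thymic epithelium, had 1 UMI in all, in the IGRP- islet library of round 2. Together the 50 genes took 0.528% and 0.620% of all UMIs in IGRP- islet cells, 0.699% and 0.737% in IGRP+ islet cells, and 0.581% and 0.642% in spleen cells. IGRP+ islet cells were highest in both rounds. The split between immune and other genes differed by group. The 5 immune genes took 0.204% and 0.196% in IGRP+ islet cells, near the 0.217% and 0.226% of spleen cells and above the 0.160% and 0.169% of IGRP- islet cells. The other 45 took 0.495% and 0.541% in IGRP+ islet cells, against 0.364% and 0.416% in spleen and 0.368% and 0.451% in IGRP- islet cells. The ratio of mean shares, IGRP+ islet over spleen, was therefore 0.902 for the immune genes and 1.33 for the others, with 1.52 for the 3 constitutive catalytic genes alone, and IGRP- islet over spleen was 0.740 and 1.05. These sums are descriptions with no test.

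IGRP+ islet cells against IGRP+ spleen cells asked how the same tetramer-positive specificity differed between the target organ and a lymphoid organ. Of the 48 genes, 13 were higher in islets and 0 were lower by edgeR's quasi-likelihood test at an adjusted p under 0.05 (adjusted over all 11277 genes tested), while 13.7% of all genes were called higher and 12.9% lower. The median difference on the log2 scale was 0.42 for the 48 genes and -0.03 for all genes, and 39 of the 48 differences were above 0. All 13 lay among the 43 tested genes outside the immune set: 4 of 7 alpha subunits, 2 of 4 structural beta subunits, all 3 constitutive catalytic subunits and 4 of 11 19S non-ATPases, but 0 of 6 ATPases, whose differences ran from 0.32 to 0.59. At an unadjusted p under 0.05 there were 26 genes, against 41.2% of all genes.

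Psma1 and Psma5, alpha subunits that form the outer gate ring of the core, showed the largest of these differences. Psma1 (chr7:114264606-114276118, - strand, GRCm38, GENCODE positions here and below) measured 153 and 157 CPM (here UMIs per 1000000 of the TMM-scaled library total, as for all levels of single genes) in IGRP+ islet cells, 95.9 and 102 in IGRP- islet cells and 83.6 and 85.6 in spleen cells. The 3 groups did not overlap, with spleen lowest, and the spleen difference was 1.83-fold (log2 0.87 ± 0.14 SE, edgeR adjusted p = 0.0096). Psma5 (chr3:108256926-108279974, + strand) measured 164 and 155 in IGRP+ islet cells, 107 and 129 in IGRP- islet cells and 86.5 and 86.9 in spleen cells, again without overlap (1.84-fold, log2 0.88 ± 0.16, edgeR adjusted p = 0.014). Of all genes, 30.7% were higher without overlap in IGRP+ islet than in spleen cells, and 23.0% higher than in IGRP- islet cells. The called genes were picked on these same libraries, so their lack of overlap, here and below, adds no separate evidence.

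In the 19S particle the 4 called genes were Psmd1, Psmd8, Psmd11 and Psmd13. Psmd1 (chr1:86064387-86139151, + strand), the large scaffold that carries ubiquitin receptors and binding proteins, measured 89.0 and 70.6 in IGRP+ islet cells, 61.2 and 62.8 in IGRP- islet cells and 46.8 and 42.9 in spleen cells (1.78-fold over spleen, log2 0.83 ± 0.17, edgeR adjusted p = 0.018). The groups stood in the same order as for Psma1 and did not overlap. Psmd8 (chr7:29174188-29180701, - strand), a lid subunit, measured 241 and 184 in IGRP+ islet cells, 167 and 164 in IGRP- islet cells and 129 and 115 in spleen cells (1.74-fold over spleen, log2 0.80 ± 0.19, edgeR adjusted p = 0.028). Its IGRP+ islet libraries lay apart from each other, yet both were above the other 4. Psmd11 (log2 0.61) and Psmd13 (log2 0.59), also of the lid, differed by less.

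All 3 constitutive catalytic genes were called higher in IGRP+ islet than in spleen cells, but 0 of 3 passed after thinning each cell to 1000 UMIs (median 0.50) or with library totals in place of TMM scaling (median 0.61), and 2 of 3 passed without the cycling cells. Psmb5 (chr14:54614119-54618022, - strand), the chymotrypsin-like site, measured 214 and 189 in IGRP+ islet cells against 129 and 126 in spleen cells, with 134 and 159 in IGRP- islet cells (1.58-fold over spleen, log2 0.66 ± 0.17, edgeR adjusted p = 0.034). Psmb6 (chr11:70525367-70527858, + strand), the caspase-like site, measured 238 and 222 against 151 and 131, with 163 and 189 in IGRP- islet cells (1.63-fold, log2 0.70 ± 0.17, edgeR adjusted p = 0.029). Psmb7 (chr2:38588036-38644087, - strand), the trypsin-like site, measured 77.9 and 77.3 against 46.4 and 43.4, with 58.4 and 70.1 in IGRP- islet cells (1.73-fold, log2 0.79 ± 0.15, edgeR adjusted p = 0.016). For all 3 genes both IGRP+ islet libraries were above every other library, which adds nothing to calls made on these same libraries.

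Their immune counterparts did not follow. Psmb8 (chr17:34197721-34201454, + strand), which replaces Psmb5, measured 737 and 560.1 in IGRP+ islet cells, 791 and 684 in spleen cells and 523 and 473 in IGRP- islet cells. Its IGRP+ islet and spleen values overlapped (log2 -0.19 ± 0.22, edgeR adjusted p = 0.57). Psmb9 (chr17:34181987-34187764, - strand), which replaces Psmb6, measured 293 and 268 in IGRP+ islet cells, 302 and 296 in spleen cells and 199 and 213 in IGRP- islet cells, with a log2 difference from spleen of -0.09 ± 0.16 (edgeR adjusted p = 0.69). Psmb10 (chr8:105935735-105938444, - strand), which replaces Psmb7, measured 150.2 and 139.6 in IGRP+ islet cells, 169 and 185 in spleen cells and 110.1 and 122 in IGRP- islet cells (log2 -0.29 ± 0.15 against spleen, edgeR adjusted p = 0.21). Both spleen libraries of Psmb9 and Psmb10 lay above both IGRP+ islet libraries, as for 33.4% of all genes, but the differences did not pass the test. Psme1 and Psme2, the PA28 subunits, differed from spleen by -0.02 and 0.26 on the log2 scale (edgeR adjusted p = 0.95 and 0.39). Of the 5 immune genes 0 was called by edgeR, 0 by DESeq2 and 0 at an unadjusted p under 0.05, and their median difference was -0.09.

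**Figure D1:**
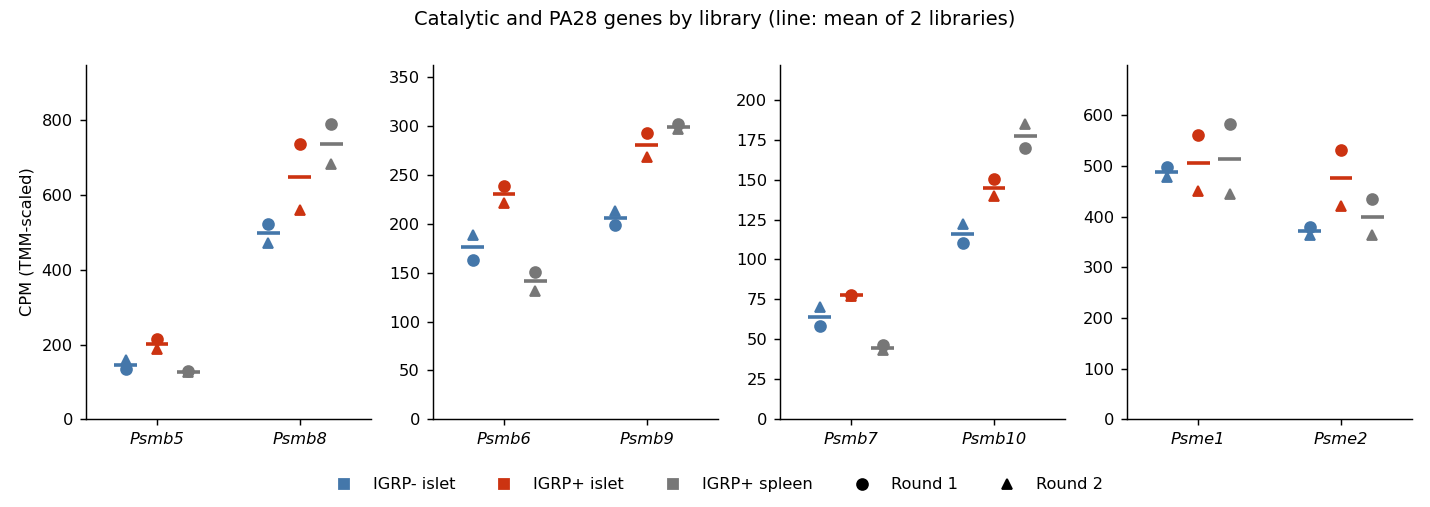
Levels of the catalytic pairs and the PA28 pair in each library, in CPM (UMIs per 1000000 of the TMM-scaled library total) on axes that start at 0, with colours for the groups, circles and triangles for rounds 1 and 2 and a line at the mean of 2 libraries. Psmb5, Psmb6 and Psmb7 are highest in IGRP+ islet cells, whereas Psmb9 and Psmb10 are highest in spleen cells, with means of 299 and 177.

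The 13 calls depended on the libraries and settings used. Leaving out any library left fewer calls. Such a fit keeps 1 library in a group and has fewer residual degrees of freedom. Its calls over all genes were not counted, so the loss is not shown to be particular to proteasome genes. Cells thinned to 1000 UMIs each gave 5 higher and 1 lower (against 9.76% and 7.67% of all genes), library totals in place of TMM scaling gave 6 and 0 (10.6% and 11.5%), and DESeq2 gave 20 higher (16.8%). Without the cycling cells, 9 were higher and 1 (Psmg1, a core assembly chaperone) was lower, against 12.8% and 12.3% of all genes. With the round as a block, which takes out what the pools of 1 round share, 32 were higher and 3 lower, against 28.0% and 27.1% of all genes. The 3 lower genes were Psmg1, Psmg2 and Psmd5, assembly factors of the core and of the 19S base (blocked edgeR adjusted p = 0.0041, 0.0065 and 0.0019).

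The share of each catalytic pair taken by its immune member compares 2 genes within a library, so that the scaling between libraries cancels, although cells with more UMIs weigh more. Psmb8 made up 86.0% (95% exact binomial interval 85.2 to 86.7) and 84.5% (83.6 to 85.4) of the UMIs of Psmb8 and Psmb5 in spleen cells, 77.5% (76.3 to 78.6) and 74.8% (73.7 to 75.9) in IGRP+ islet cells, and 79.6% (79.0 to 80.2) and 74.8% (74.3 to 75.3) in IGRP- islet cells. These intervals cover counting error only. For Psmb9 with Psmb6 the shares were 66.7% and 69.3% in spleen cells, 55.1% and 54.7% in IGRP+ islet cells and 55.0% and 53.0% in IGRP- islet cells. For Psmb10 with Psmb7 they were 78.5% and 81.0% in spleen cells, 65.9% and 64.4% in IGRP+ islet cells and 65.3% and 63.5% in IGRP- islet cells. In every pair both spleen libraries were above all 4 islet libraries.

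Mean immune shares of IGRP+ islet cells were below those of spleen cells by 9.08 points for Psmb8 (76.1% ± 1.89 against 85.2% ± 1.05, SD, n = 2 each), 13.1 points for Psmb9 (54.9% ± 0.286 against 68.0% ± 1.89) and 14.6 points for Psmb10 (65.1% ± 1.05 against 79.7% ± 1.74). Each difference exceeded the spread within groups, but the exact two-sided permutation test of 2 against 2 gave p = 0.333, the smallest it allows. The difference held in each round, at 8.48 and 9.68 points for Psmb8, 11.5 and 14.6 for Psmb9, and 12.7 and 16.6 for Psmb10. Between the islet groups the means differed by -1.06, 0.958 and 0.698 points (exact permutation p = 0.667 each). By round these were -2.11 and -0.00802 points for Psmb8, 0.174 and 1.74 for Psmb9, and 0.535 and 0.862 for Psmb10. The direction between the islet groups was not stable. Leaving out single libraries gave -3.45 to 1.33, -0.0283 to 1.94 and -0.210 to 1.61 points, and Psmb9 gave -1.14 without cycling cells and -2.94 after thinning.

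After thinning, the differences from spleen (IGRP+ islet minus spleen) were -7.53, -18.5 and -13.9 points. Without the cycling cells the IGRP+ islet means were below the spleen means by 9.69 points for Psmb8, 16.8 for Psmb9 and 15.1 for Psmb10. Both spleen libraries remained above all 4 islet libraries in every pair, at 66.7% or more against 53.1% or less for the Psmb9 pair.

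**Figure D2:**
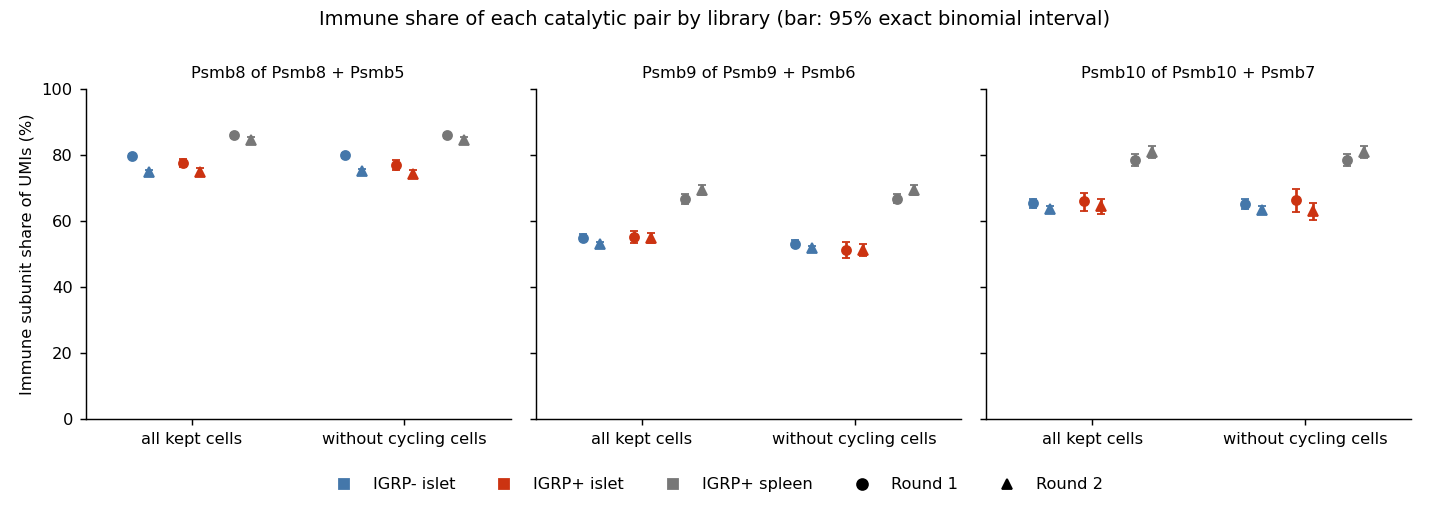
Share of the UMIs of each catalytic pair that came from the immune gene, in percent on an axis from 0 to 100, by library, for all kept cells and without the cycling cells, with bars for 95% exact binomial intervals. Spleen libraries lie at 66.7% or above in all 3 pairs and above all 4 islet libraries in both sets of cells.

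IGRP+ against IGRP- islet cells compared T cells of the same organ and the same mice by their specificity. No proteasome gene passed the edgeR test in either direction, where 0.151% of all genes were called higher and 1.04% lower. At an unadjusted p under 0.05 there were 12 genes, against 17.6% of all genes, and DESeq2 called 3 higher (Psma1, Psmb3 and Psmb9; background 1.85%). The differences pointed one way: 45 of 48 were above 0, with a median of 0.35 against -0.01 for all genes. In both rounds 40 genes were higher in IGRP+ cells (36.2% of all genes) and 2 were lower (39.7% of all genes), and for 33 genes both IGRP+ libraries were above both IGRP- libraries (23.0% of all genes). With the round as a block, 26 were higher and 1 was lower, against 14.4% and 16.1% of all genes.

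Psma1 had the largest difference, with 153 and 157 CPM against 95.9 and 102 (log2 0.65 ± 0.14, edgeR adjusted p = 0.10, and 0.00079 with the block). Psmb3, a structural beta subunit, measured 322 and 288 against 197 and 224 (log2 0.54 ± 0.16, edgeR adjusted p = 0.20, and 0.0054 with the block). Immune and constitutive catalytic genes differed by like amounts here, from 0.32 to 0.44 for Psmb10, Psmb8 and Psmb9 and from 0.27 to 0.46 for Psmb7, Psmb6 and Psmb5. With the block Psmb8, Psmb9, Psmb5 and Psmb6 passed (edgeR adjusted p = 0.037, 0.012, 0.015 and 0.033), and Psmb10 and Psmb7 did not (0.052 and 0.11). Psme1 differed by 0.05.

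The exceptions in direction were 2 activators and the copy Psme2b (log2 -0.09). Psme4, the gene of the PA200 cap, measured 15.5 and 17.1 in IGRP+ islet cells, 22.6 and 21.4 in IGRP- islet cells and 15.7 and 14.6 in spleen cells. Both IGRP- islet libraries were above the other 4 (IGRP+ minus IGRP-, log2 -0.42 ± 0.16, edgeR adjusted p = 0.26, and 0.034 with the block). Of all genes, 25.8% were lower in IGRP+ than in IGRP- islet cells without overlap. Psme3, the gene of the nuclear PA28 gamma cap (chr11:101316213-101323537, + strand), measured 67.4 and 56.4 in IGRP+ islet cells, 72.1 and 74.9 in IGRP- islet cells and 52.0 and 43.8 in spleen cells, with a log2 difference of -0.25 between the islet groups.

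IGRP- islet cells against IGRP+ spleen cells differed in both tissue and specificity. The test called 1 gene higher (12.2% of all genes) and 3 lower (10.2% of all genes), with 12 at an unadjusted p under 0.05 (37.8% of all genes) and a median of 0.15 against 0.02 for all genes. Psme3 was higher in IGRP- islet cells (1.53-fold, log2 0.62 ± 0.16, edgeR adjusted p = 0.045). The lower genes were Psmb10 (0.655-fold, log2 -0.61 ± 0.15, edgeR adjusted p = 0.038) and 2 assembly chaperones. Psmg1 (chr16:95979933-95990960, - strand), which helps to build the alpha ring, measured 10.1 and 12.3 in IGRP- islet cells, 15.2 and 15.0 in IGRP+ islet cells and 21.8 and 24.0 in spleen cells (0.491-fold, log2 -1.03 ± 0.18, edgeR adjusted p = 0.015). Psmd10 (chrX:140948429-140956728, - strand), known as gankyrin, measured 21.0 and 25.1 in IGRP- islet cells, 31.3 and 35.1 in IGRP+ islet cells and 34.4 and 36.1 in spleen cells (0.656-fold, log2 -0.61 ± 0.17, edgeR adjusted p = 0.047).

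In each of these genes the IGRP- islet libraries did not overlap the spleen libraries. Of all genes, 33.4% were higher and 32.5% lower without overlap in this comparison. The genes were called on these same libraries, so this adds no separate evidence. Psmb8 and Psmb9 differed by -0.57 ± 0.22 and -0.54 ± 0.16 (edgeR adjusted p = 0.12 and 0.056), and both passed with the round as a block (0.0017 and 0.0015), where 12 genes were higher and 7 lower (29.2% and 26.3% of all genes). The 4 calls did not hold when an IGRP- islet or spleen library was left out, nor that of Psme3 without the IGRP+ islet library of round 1. Such fits keep 1 library in a group, and the loss of calls over all genes was not counted. Library totals in place of TMM scaling ended the calls of Psmb10, Psmd10 and Psme3 (edgeR adjusted p = 0.061, 0.11 and 0.061), kept that of Psmg1 and added Psmb8 and Psmg2 as lower (edgeR adjusted p = 0.037, 0.033 and 0.028). DESeq2 called 2 higher and 6 lower, against 14.7% and 11.6% of all genes. The 3 comparisons share libraries, so their values stand side by side and are not independent.

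**Figure D3:**
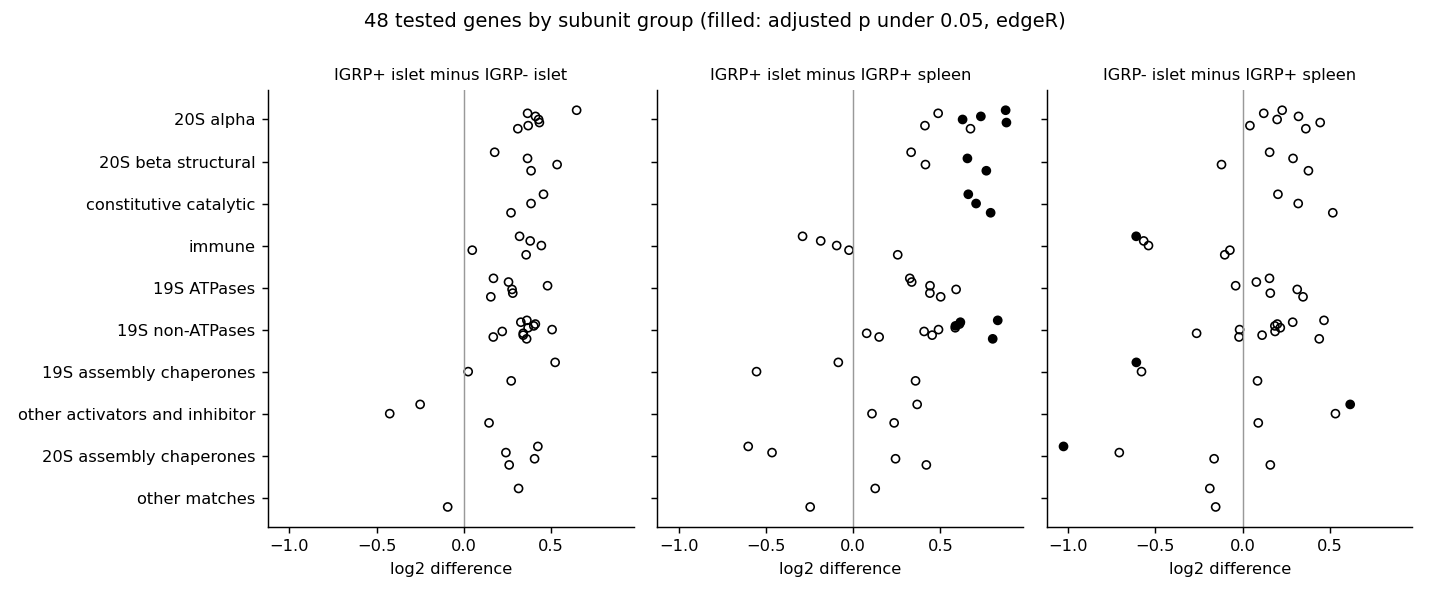
Difference of each of the 48 tested genes on the log2 scale, by subunit group, for the 3 comparisons, with filled points for an adjusted p under 0.05. In the comparison of IGRP+ islet with spleen cells the 3 constitutive catalytic genes lie at 0.66 to 0.79 and the 5 immune genes at -0.29 to 0.26.

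Lists of related genes gave the surroundings of these values. Of 16 tested proteasome partners, such as ubiquitin, shuttle factors and transcription factors of the subunit genes, 1 was higher and 1 lower in IGRP+ islet against spleen cells: Pomp, the maturation protein of the core (log2 0.72, edgeR adjusted p = 0.0375), and Nfe2l2, the stress transcription factor NRF2 (log2 -0.87, edgeR adjusted p = 0.0234). Between the islet groups 0 of 16 were called by edgeR, with 2 at an unadjusted p under 0.05 (17.6% of all genes). With the round as a block, 4 were higher and 3 lower, against 14.4% and 16.1% of all genes. Of 10 class I antigen processing genes, 1 (Calr, the chaperone calreticulin, log2 0.72) was higher in IGRP+ islet than in spleen cells. In IGRP+ islet against spleen cells, the calls of neither list exceeded the shares of all genes, 13.7% higher and 12.9% lower. The partners still had a median of 0.39 against -0.03 for all genes, with 12 of 16 above 0. The median of the class I list was 0.02. With the round as a block, 9 partners were higher and 2 lower, and 4 class I genes were higher and 2 lower (28.0% and 27.1% of all genes).

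Of 16 interferon target genes (median -0.88), 3 were lower in IGRP+ than in IGRP- islet cells (1.04% of all genes) and 0 higher (0.151%). They were the GTPase gene Iigp1 (log2 -4.98), the interferon regulatory factor gene Irf1 (log2 -1.22) and the cytokine signalling inhibitor gene Socs1 (log2 -1.23). Psmb8, Psmb9 and Psmb10 measured higher in IGRP+ islet cells in the same comparison. Any link between these values was not tested, and the share of cycling cells differed between the islet groups as well. Against spleen, IGRP+ islet cells had 3 of the 16 lower (Irf1, Iigp1 and Gbp7), with 12.9% of all genes lower and a list median of -0.37. IGRP- islet cells had 2 higher (Iigp1 and Socs1, 12.2% of all genes) and 1 lower (Gbp7, 10.2%), with a list median of 0.29.

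Cell cycle genes moved with the groups as well. Of 15, all 15 were higher in IGRP+ islet than in spleen cells (median 4.11), against 13.7% of all genes. In IGRP- islet against spleen cells 13 were higher (12.2% of all genes). Between the islet groups 1 was higher in IGRP+ cells (0.151% of all genes), with a list median of 1.21. The part of exocrine RNA in the results was not tested. Leaving out cycling cells, the median of the proteasome genes between IGRP+ islet and spleen cells was 0.32 and that of the immune genes -0.36.

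Cycling and non-cycling cells were then compared within the 4 islet libraries, with the library as a block (spleen libraries had 3 and 9 cycling cells and did not enter). Non-cycling cells were those with a UMI of 0 of the 15 genes, 5091 and 7024 in the IGRP- islet libraries and 748 and 1027 in the IGRP+ islet libraries. Cells with UMIs of 1 or 2 of the genes entered neither class. Cycling cells numbered 381 and 396 in the IGRP- islet libraries and 192 and 187 in the IGRP+ islet libraries. Of the 48 genes, 36 were higher in cycling cells (26.5% of all genes) and 0 were lower (26.0% of all genes) at an adjusted p under 0.05, and 38 passed an unadjusted p under 0.05 (58.3% of all genes). The median was 0.51 on the log2 scale against -0.03 for all genes, and 39 genes were higher in all 4 libraries, against 29.1% of all genes. All 7 tested alpha subunits, 4 of 4 structural and 3 of 3 constitutive catalytic beta subunits, 4 of 5 immune genes, 5 of 6 ATPases and 8 of 11 19S non-ATPases were higher. So were 3 of 4 20S assembly chaperones, 1 of 3 19S assembly chaperones and 1 of 2 further matches, but 0 of 3 other activators or inhibitors.

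Psmb9 differed most. It measured 353 and 377 CPM in cycling IGRP- islet cells against 164 and 181 in non-cycling ones, and 449 and 441 in cycling IGRP+ islet cells against 193 and 203. Every cycling value was above every non-cycling value (2.18-fold, log2 1.12 ± 0.07, edgeR adjusted p = 8.2e-07). Psma4, an alpha subunit, measured 175 and 180.4 against 69.0 and 85.6 in IGRP- islet cells and 171 and 196 against 105 and 106 in IGRP+ islet cells (2.03-fold, log2 1.02 ± 0.10, edgeR adjusted p = 2e-05), also without overlap. Psmd13 differed by 0.84 ± 0.08 (edgeR adjusted p = 2.1e-05), and Psmb8 and Psmb10 by 0.67 and 0.69.

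Psme1 stood apart within the immune set, at 507 and 494 in cycling against 494 and 463 in non-cycling IGRP- islet cells and 580.4 and 501 against 514 and 406 in IGRP+ islet cells (log2 0.15, edgeR adjusted p = 0.13). It was slightly higher in all 4 libraries, but less than the test could separate from 0. Interferon target genes went the other way, with 14 of 15 tested lower and 1 higher in cycling cells (median -0.85). Of 10 class I antigen processing genes, 4 were higher and 2 lower (median 0.17). Of 16 proteasome partners (median -0.16), 5 were higher, among them Pomp (log2 0.94), and 6 were lower. In the same comparison 26.5% of all genes were higher and 26.0% lower. The immune share of the Psmb9 pair was 62.1% and 60.5% in cycling against 52.7% and 50.9% in non-cycling IGRP- islet cells, and 60.4% and 62.8% against 50.9% and 50.2% in IGRP+ islet cells, whereas the Psmb8 share was 78.7% and 73.6% against 80.7% and 75.5%, and 78.4% and 76.2% against 76.6% and 74.5%. The Psmb10 share was 66.1% and 64.8% against 65.2% and 63.8%, and 65.2% and 68.0% against 63.6% and 62.5%.

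Cycling cells were deeper, with a median of 8982 to 9958 UMIs against 3072.5 to 3644.5 in non-cycling cells. With the same classes and every cell thinned to 1000 UMIs, 26 of 45 genes tested were higher (19.4% of all genes) and 0 lower (17.8%). The median was 0.52 against -0.04. Psmb9 (log2 1.05, edgeR adjusted p = 1.5e-08), Psma4 (log2 1.10, edgeR adjusted p = 5.4e-07) and Psmd1 (log2 0.74, edgeR adjusted p = 0.00057) were among the 26. When the classes were instead set from the thinned counts, 49 to 141 cycling cells per library were left and others moved among the non-cycling cells. Then 13 of 45 were higher (12.7% of all genes) and 0 lower (11.6%), with a median of 0.36 against -0.07. Psmb9 still passed (log2 0.89, edgeR adjusted p = 2.7e-06) and Psmd1 did not (log2 0.16, edgeR adjusted p = 0.79).

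**Figure D4:**
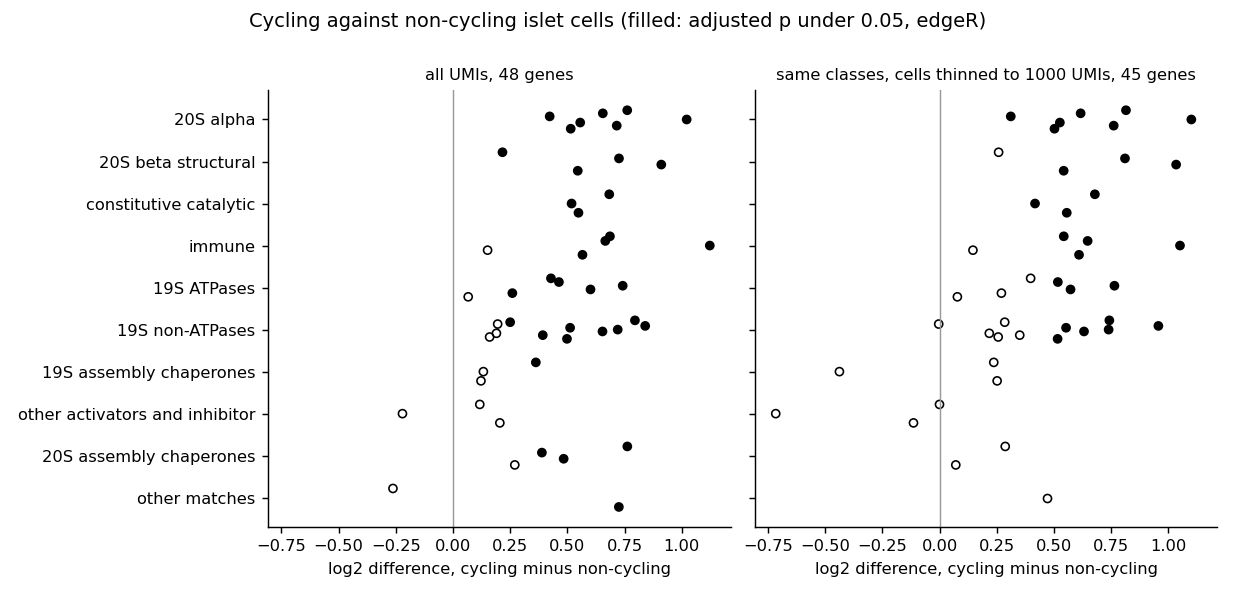
Difference between cycling and non-cycling islet cells on the log2 scale for each gene, by subunit group, from all UMIs (48 genes) and after thinning each cell to 1000 UMIs (45 genes), with filled points for an adjusted p under 0.05. From all UMIs 36 genes are filled, and after thinning with the same classes 26.

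Of the remaining members, Psme2b, a copy of Psme2, measured 4.89 and 32.9 CPM in IGRP- islet cells, 9.09 and 26.0 in IGRP+ islet cells and 6.76 and 35.6 in spleen cells. It followed the round and not the group, and how reads were split between the copies is not known, so its values and, in part, those of Psme2 are uncertain. Psmc3ip, a meiotic recombination factor named for its binding to Psmc3, lay between 10.5 and 16.1 in all libraries. The 6 ATPases, the ring that unfolds substrates, were above spleen in IGRP+ islet cells in every case without passing the test, and 6 of 6 passed with the round as a block (28.0% of all genes).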

How the data were processed

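The deposited UMI counts per gene and barcode were made by the authors with Cell Ranger (5.0.1 in the matrix headers) on mm10 and are raw. Cells with under 5% mitochondrial UMIs and 200 to 3500 genes (islet) or 200 to 2000 (spleen) were kept; no doublet caller was run beyond these limits. The UMIs of the kept cells were summed per library and tested with edgeR 4.0.16 (R 4.3.3) by its quasi-likelihood test, with group means, TMM scaling, filterByExpr and Benjamini-Hochberg adjustment over all genes tested. The fits were run on simulated counts with the same spread for every gene and no effect shared by the libraries of a round. That check therefore does not cover the round. Cycling and non-cycling cells were compared with the library as a block. Each SE of a log2 difference was derived from the test, as the absolute difference over the square root of its F statistic. DESeq2 1.42.0, shares with exact binomial intervals and exact permutation tests (scipy 1.17.1) were also used. All members were accounted for; members with full statistics were called ones, ranked by size of difference at a mean of at least 20 CPM, and the catalytic and immune genes; others were named after their values were seen. The members, lists and tests were chosen with earlier results of these data known. The round was taken as pairing libraries, since islets and spleens of 1 round came from the same pool of mice. By the study's methods the rounds also differed in read length, which the block takes out as well. Deviations from group means correlated at r = 0.694, 0.630 and 0.717 over 11277 genes. Gene positions are from GENCODE vM21 (GRCm38). Receptor sequencing libraries were not used here. Planned comparisons of 2 further classes of cells are not reported here. The alternatives with library or class totals in place of TMM and with thinned cells in unchanged classes were chosen after seeing the data.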

Additional observations from a re-analysis of the deposited data

How the results depend on the processing

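The round as a replicate block, which pairs libraries of the same mice, moved calls between IGRP+ and IGRP- islet cells from 0 to 26 higher and 1 lower, those of IGRP+ islet against spleen cells from 13 to 32 higher and 3 lower, and those of IGRP- islet against spleen cells from 1 to 12 higher and from 3 to 7 lower. DESeq2 gave 3, 20 and 2 higher (1.85%, 16.8% and 14.7% of all genes) and, in the last of these comparisons, 6 lower (11.6%). A fit of only the 4 libraries compared gave 5 higher for IGRP+ islet against spleen cells (10.8%). Thinned cells gave 5 higher and 1 lower there (9.76% and 7.67%), 5 lower for IGRP- islet against spleen cells (9.10%), and 13 higher in cycling cells with classes set after thinning (12.7%); without cycling cells 1 and 5 were lower in IGRP+ and IGRP- islet against spleen cells (12.3% and 11.2%). Totals in place of TMM gave 6 and 0 higher for the spleen comparisons (10.6% and 8.03%), and no upper limit on genes gave 3 higher for IGRP- islet against spleen cells (13.1%). No library block gave 23 for cycling cells (14.5%). Leaving out single libraries gave no more calls than the main fit in either comparison with spleen cells, and often fewer. Such fits keep 1 library in a group, and their calls over all genes were not counted. Differences of immune shares, IGRP+ islet minus spleen, were -7.53 points for Psmb8 when thinned and -16.8 (no cycling cells) and -18.5 (thinned) for Psmb9; between the islet groups they were -1.14 and -2.94 for Psmb9 and 2.02 for Psmb10 (thinned). Ratios of summed immune genes without cycling cells, then thinned, were 1.16 and 1.13 (IGRP+ over IGRP- islet), 0.820 and 0.790 (IGRP+ islet over spleen) and 0.705 and 0.698 (IGRP- islet over spleen), with 0.937 and 0.772 for the spleen ratios without an upper limit on genes. For Psmb8, Psmb9 and Psmb10 alone they were 1.22 and 1.21, 0.715 and 0.708, and 0.588 and 0.587, with 0.879 and 0.677 without the limit, and for the constitutive catalytic genes 1.41 and 1.36 over spleen. The cause of these changes was not tested. Between the islet groups the share differences turned sign, for Psmb9 under these settings and for all 3 pairs when single libraries were left out (-3.45 to 1.33, -0.0283 to 1.94 and -0.210 to 1.61 points for Psmb8, Psmb9 and Psmb10). No called difference of a single gene turned sign. Library totals moved the median of all genes to -0.124 for IGRP+ islet against spleen cells. Of the values for single genes under alternatives, 540 kept their side of the threshold, 71 lost it and 17 gained it. With 2 pools per group and 3 residual degrees of freedom, a difference that missed the threshold is not shown to be absent, and UMI depth limits genes near the filter.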
